A study of Mus musculus with 2 samples.

Results

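The genes described here carry MHC class I antigen presentation: the light chain B2m, the heavy chains H2-K1, H2-D1 and H2-T23, the peptide transporter subunits Tap1 and Tap2, the loading factor Tapbp, and the immunoproteasome subunits Psmb8 and Psmb9. They were taken by symbol from a fixed list, which was set with earlier results of these data known. All 9 were found among the 55536 genes of both gene tables, and 60 annotated transcripts belong to them. The samples were total RNA of the hippocampus of male B6CASTF1/J mice, a hybrid of C57BL/6J and CAST/EiJ, at postnatal day 14. The labels call the tissue a layer of the hippocampus. A single group of 2 libraries, labelled biological replicates 1 and 2, was sequenced from 300 ng of RNA each, with synthetic ERCC spike-in RNAs and reduced ribosomal RNA. Each label lists 3 males under their own animal numbers, with no statement in the sources used here on pooling of their RNA. Both labels also carry the same donor identifier, so how far the replicates are independent is not clear. Every SD taken over libraries measures only the spread between these 2. The p-values set the difference between the 2 libraries against counting error, or against an assumed variation, and measure no spread between animals. No treatment, genotype or time was compared, so the text describes how high each gene was, how genes compared within a library and how the libraries differed.

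Class I molecules display short peptides from inside a cell to CD8 T cells and natural killer cells. Proteasomes cut proteins into peptides, and the immunoproteasome is a form in which catalytic subunits are exchanged, typically after interferon. Tap1 and Tap2 together carry peptides into the endoplasmic reticulum, where tapasin, the product of Tapbp, holds the empty class I molecule for loading beside calreticulin and Pdia3. A heavy chain needs the light chain B2m to reach the cell surface. In the brain, class I genes are known for low expression in most cells, for inducibility by interferon and for roles in the refinement of synapses.

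B2m (ENSMUSG00000060802.8) lies alone on chromosome 2 (mm10 chr2:122147686-122153083, plus strand). The other 8 lie in the H2 region of chromosome 17, all in mm10 coordinates of the GENCODE M21 annotation. Tapbp (ENSMUSG00000024308.15, chr17:33915899-33929292, plus strand) and H2-K1 (ENSMUSG00000061232.16, chr17:33996017-34000347, minus strand) come first. A compact cluster follows, with Psmb9 (ENSMUSG00000096727.3, chr17:34181987-34187764, minus strand), Tap1 (ENSMUSG00000037321.17, chr17:34187553-34197225, plus strand), Psmb8 (ENSMUSG00000024338.15, chr17:34197721-34201454, plus strand) and Tap2 (ENSMUSG00000024339.12, chr17:34203527-34216321, plus strand). H2-D1 (ENSMUSG00000073411.11, chr17:35262730-35267499, plus strand) and H2-T23 (ENSMUSG00000067212.8, chr17:36029773-36032855, minus strand) lie farther along. Psmb9 and Tap1 overlap at their starts on opposite strands. Tapbp overlaps Zbtb22 on the same strand, so reads of the shared exons could be given to either gene.

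The heavy chain genes share stretches of identical sequence, which bears on how a read can be assigned to one of them. The longest run of identical coding bases between H2-D1 and H2-Q1, another class I gene, was 184 bases, within exon 4 of 8 of transcript H2-D1-202 (mm10 chr17:35265831-35266014, plus strand). It is shown here from the GENCODE M21 transcript, with capitals on the 91 bases that are also identical in H2-K1.
H2-D1 exon 4: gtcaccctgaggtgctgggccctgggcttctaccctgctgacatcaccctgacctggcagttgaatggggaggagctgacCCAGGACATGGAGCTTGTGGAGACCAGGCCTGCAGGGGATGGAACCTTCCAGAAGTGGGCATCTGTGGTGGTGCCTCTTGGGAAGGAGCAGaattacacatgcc
The same 91 bases of H2-K1 are also found in H2-Q6 and H2-Q7. H2-D1 and H2-T23 shared a run of 145 coding bases, and H2-K1 and H2-T23 one of 81. A read that falls wholly inside such a run carries no base that separates the genes on the reference.

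Over all annotated transcripts, 26.7% of the distinct 31-base runs of H2-D1, 24.5% of those of H2-T23 and 22.8% of those of H2-K1 occurred in another gene. Runs of 100 bases were shared far less, at 3.59% for H2-D1, 3.15% for H2-T23 and 0.957% for H2-K1. B2m and Psmb9 shared no 31-base run with any gene. The share was 0.378% for Psmb8, 0.825% for Tap1, 1.34% for Tap2 and 4.62% for Tapbp, whose main partner was Zbtb22. These shares describe the reference alone. The CAST/EiJ alleles that each hybrid animal also carries were not analysed here, so reads that differ from the reference for that reason could not be counted apart.

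The promoter windows of the classical heavy chains H2-K1 and H2-D1 also share a stretch of nearly identical sequence. In RefSeq windows (GRCm38.p6, from 250 bases before to 50 after the annotated start), both held GGGATTCCC, an NF-kB motif, on the strand of the gene in a search of both strands. The motif is in capitals in these 30-base stretches, of which 29 bases are identical.
H2-K1, chr17:34000438-34000467, minus strand: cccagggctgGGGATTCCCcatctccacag
H2-D1, chr17:35262914-35262943, plus strand: cccagggctgGGGATTCCCcatctcctcag
Of 32851 promoter windows in the table, 0.353% held this motif. Windows were found for 8 of the 9 genes, all but Tap2. GAAANNGAA, part of an interferon response element, was searched on both strands and found in B2m and H2-T23, against 8.56% of all windows. TTCNNNGAA, the letters of a gamma-activated site, was found in Psmb8, against 8.30%. TGACG, the core of the X2 box, was found on either strand in B2m, H2-D1, H2-K1, Psmb9 and Tap1, against 20.8%. CCAAT, the letters of a Y box, was found on either strand in 7 windows, all but that of Psmb8, against 37.4%. The windows of Tap1 and Psmb9, which are read in opposite directions from starts 226 bases apart, overlap by 275 of 300 bases and so are not independent. The windows follow RefSeq starts. Those of H2-D1, Tapbp, Psmb8 and Psmb9 lie wholly inside the GENCODE M21 bounds of their own gene, and that of Tap1 inside the bounds of Psmb9. The H2-D1 stretch shown thus lies after the GENCODE start of that gene. A match describes letters and not a bound site.

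The libraries held 29144892 and 31755578 expected counts over genes in replicates 1 and 2. With a limit of 3 counts, a gene listed at 0 could have reached 0.103 and 0.0945 CPM (counts scaled to the library). Markers of neurons and astrocytes were high in both libraries, with Camk2a at 1260 and 1307 TPM (transcripts per unit length, on a common total for each library) and Slc1a2 at 1039 and 1027. The libraries differed in other cell types. All 5 markers of myelinating oligodendrocytes reported (Mbp, Mobp, Mog, Mag and Mal) were lower in replicate 2, with log2 ratios from −1.37 to −0.90, and so were the 3 choroid plexus markers tested (Ttr, Otx2 and Clic6, from −2.07 to −0.95). Hbb-bs, a haemoglobin gene of red blood cells, was also lower, at 274 TPM in replicate 1 and 202 in replicate 2, as were Hba-a1 (−0.51) and Alas2 (−0.88). Of the 5 red blood cell markers, 4 were called lower. The remaining 1 went the other way (0.83) and was not called. Of other marker lists, Cd163 of perivascular macrophages was lower (−0.69), and Kcnj8 of mural cells (0.68), Dcn of fibroblasts (0.57) and Sst of inhibitory neurons (0.51) were higher. These are single markers, and their lists were called only in part. Calls were 1 lower of 3 tested in macrophages, 2 higher of 5 in mural cells and 2 higher of 4 in inhibitory neurons. Fibroblast markers were mixed, with 1 higher and 2 lower of 5. Over all genes tested, 22.7% were called by the test described below. Whether these marker differences bear on the class I genes was not tested. In such bulk RNA, fewer cells of a type and less RNA per cell cannot be told apart.

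Class I presentation genes were present at low to moderate levels, and they spanned a wide range. Values are those of the RSEM-layout tables unless the kallisto layout is named. B2m was the highest at 31.4 ± 2.40 TPM (SD, n = 2, as for all values given so) and Psmb9 the lowest at 0.590 ± 0.255 TPM. The median of the 9 mean levels was 3.14 TPM. Among 12924 protein-coding genes detected at 1 TPM or more in both libraries, whose median was 15.2 TPM, B2m stood at percentile 72.6. It alone of the 9 lay above that median, with Tapbp at percentile 44.9, H2-D1 at 27.7, H2-K1 at 26.0 and Tap2 at 12.8. Tap1 was at percentile 3.22, H2-T23 at 0.990 and Psmb8 at 0.178. Psmb9 alone missed a TPM of 1 in both libraries.

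**Figure D1:**
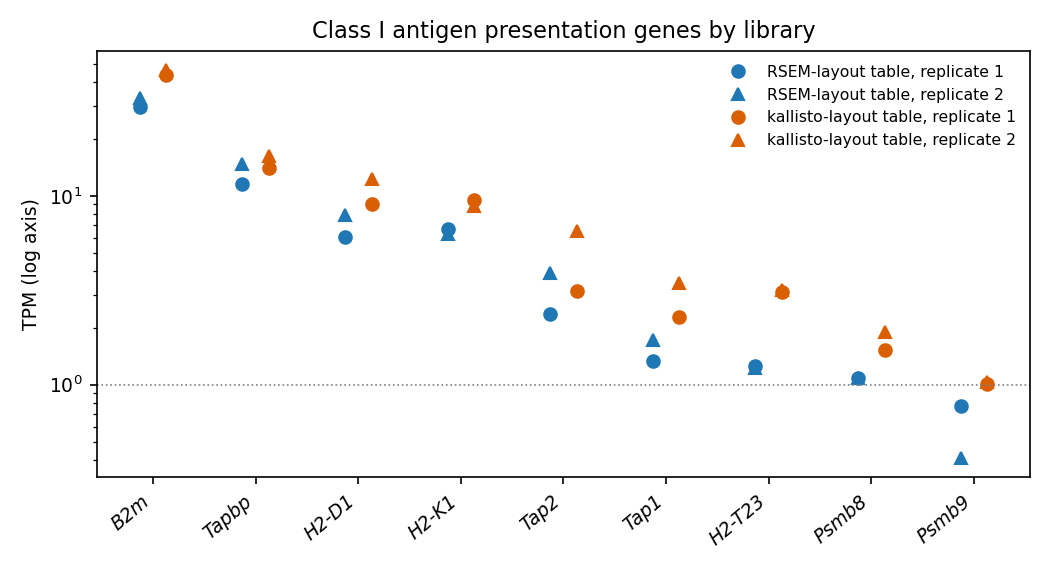
TPM of the 9 class I presentation genes on a log axis, ordered by their mean in the RSEM-layout tables (blue) and shown beside the kallisto-layout tables (orange), with circles for replicate 1 and triangles for replicate 2 and a dotted line at 1 TPM. B2m lies highest at 29.7 and 33.1 TPM in the RSEM-layout tables, Psmb9 lowest at 0.770 and 0.410, and each orange point sits above the blue point of the same gene and library. The shift is general, with a median ratio of kallisto-layout to RSEM-layout TPM of 1.59 over all genes tested.

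The light chain B2m was read at 29.7 TPM in replicate 1 and 33.1 TPM in replicate 2, from 456 and 541 expected counts. Replicate 2 was the higher, by less than the counting error. Its annotation holds 1 transcript, B2m-201, so its level does not depend on a split between transcripts. The light chain was 4.51-fold above H2-D1 (mean log2 ratio of TPM 2.17 ± 0.16) and 4.85-fold above H2-K1 (2.28 ± 0.17). Calling a pair different required the same direction in both libraries and a mean above both 0.5 and 2 SD, and both of these pairs were called. Whether reads of CAST/EiJ alleles were counted equally well for B2m and the heavy chains was not tested. No exact sign-flip test was run, since the smallest two-sided p that 2 libraries allow is 0.5. B2m lay near the levels of the microglial receptor Csf1r (33.1 and 39.5 TPM) and of Cldn5, a tight junction gene of endothelial cells (28.7 and 39.4 TPM), and neither pair was called.

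Of the heavy chains, H2-D1 and H2-K1 encode the classical molecules and H2-T23 encodes the nonclassical molecule Qa-1, which presents leader peptides to natural killer receptors. H2-D1 was at 6.07 TPM in replicate 1 and 7.95 in replicate 2, from 223 and 290 counts. H2-K1 was at 6.66 and 6.26 TPM, from 126 and 129 counts. Their ranges overlapped and their order changed between libraries, with a mean log2 ratio of H2-D1 to H2-K1 of 0.11 ± 0.34, so the classical heavy chains were not separated. H2-T23 was lower than both, at 1.25 and 1.22 TPM from about 40 counts in each library. H2-D1 was 5.63-fold above it (log2 2.49 ± 0.30) and H2-K1 5.23-fold (2.39 ± 0.04). In the kallisto-layout tables these gaps were smaller, at a log2 ratio of 1.75 ± 0.28 and 1.55 ± 0.10, and both pairs were still called.

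The transporter genes differed from each other in TPM taken over all their transcripts, coding or not, although their products work as a pair. Tap2 was at 2.38 TPM in replicate 1 and 3.90 in replicate 2, and Tap1 at 1.34 and 1.72. Tap2 was 2.01-fold above Tap1, with a log2 ratio of Tap1 to Tap2 of −1.005 ± 0.249. In the kallisto layout this gap was 1.61-fold (−0.685 ± 0.325) and was still called. Between libraries, the log2 ratio of Tap2 was 0.71 in TPM but 0.29 in counts. Coding transcripts held 33.8% and 31.9% of the TPM of Tap2 in replicates 1 and 2, and 76.3% and 72.8% of that of Tap1. The gap thus describes the genes as a whole and not their coding transcripts. How far the split of reads between transcripts sets the gap to Tap1 was not tested. Most of the counts of Tap2 fell to a transcript annotated as keeping an intron. Tapbp, which encodes tapasin, was at 11.5 and 14.7 TPM and so 8.57-fold above Tap1 (log2 3.099 ± 0.0035). The related gene Tapbpl, which encodes the peptide editor TAPBPR, was at 1.32 and 0.970 TPM, 11.5-fold below Tapbp (log2 ratio of Tapbp to Tapbpl 3.52 ± 0.57). In the kallisto-layout tables these pairs were closer, at 5.36-fold (log2 2.42 ± 0.27) and 6.86-fold (2.78 ± 0.55), and still called.

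Psmb8 and Psmb9 encode the immunoproteasome subunits that take the places of Psmb5 and Psmb6. Psmb8 was at 1.09 TPM in both libraries, from 25 and 22 counts. Psmb9 was at 0.770 TPM in replicate 1 and 0.410 in replicate 2, from 8 and 14 counts. The TPM of Psmb9 was thus lower in replicate 2 although its count was higher. The transcript with the largest share of its TPM was also different, being Psmb9-203 (529 bases) with 65.2% in replicate 1 and Psmb9-204 (1352 bases) with 78.1% in replicate 2. Psmb8 and Psmb9 were not called different from each other (log2 0.96 ± 0.64), nor were Tap1 and Psmb9, which share a promoter region (1.43 ± 0.90). In the kallisto-layout tables both pairs were called, at 0.73 ± 0.21 and 1.46 ± 0.40.

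The standard catalytic subunits were far above their exchangeable counterparts. Psmb5 was at 88.6 and 89.9 TPM, 81.9-fold above Psmb8 (log2 6.36 ± 0.01). In the kallisto layout it was 68.9-fold above (6.11 ± 0.28). The SD of 0.01 leaves out the counting error of Psmb8, which had 25 and 22 counts. Psmb6 was at 82.9 and 94.7 TPM, 158-fold above Psmb9 (log2 7.30 ± 0.78). The remaining exchangeable subunit, Psmb10, was at 29.97 and 32.2 TPM and only 3.32-fold below Psmb7, the subunit it replaces (log2 ratio of Psmb7 to Psmb10 1.73 ± 0.0019). The 3 exchangeable subunits were therefore not at 1 level, with Psmb10 in the range of B2m and the other two near 1 TPM. Psmb8 and Psmb9 held too few counts for their folds to be precise. The 95% counting interval of the log2 ratio between libraries ran from −1.22 to 0.56 for Psmb8 and from −0.68 to 2.13 for Psmb9.

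**Figure D2:**
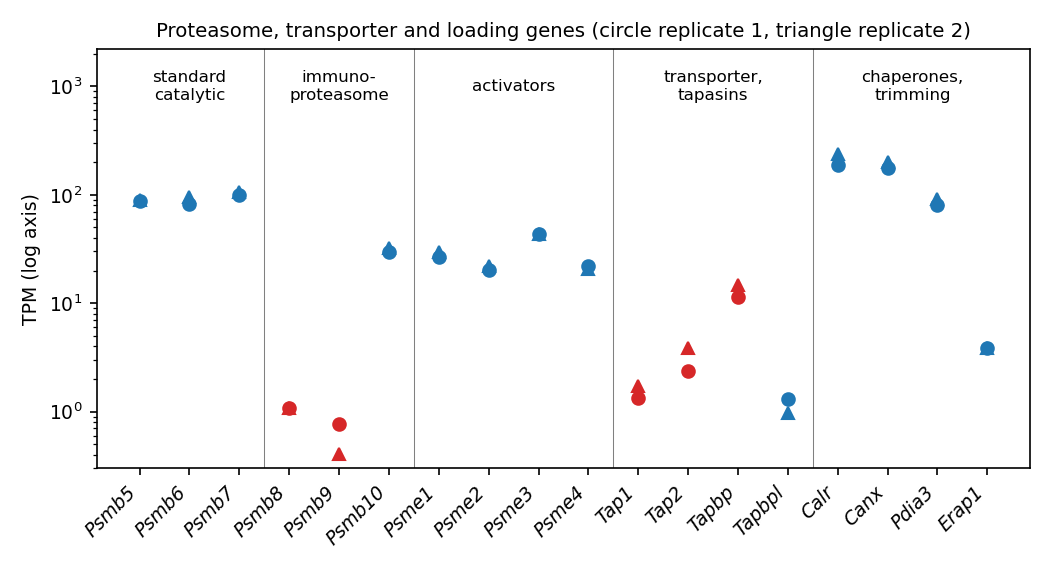
TPM on a log axis for proteasome subunits, proteasome activators, the peptide transporter with tapasin and its relative, and chaperones with the trimming enzyme Erap1, with circles for replicate 1 and triangles for replicate 2. The listed class I genes (red) lie at or below 14.7 TPM, whereas the standard catalytic subunits lie between 82.9 and 107 TPM and Psmb10 near 31.1.

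In the order of levels, B2m, Tapbp and H2-D1 stood apart from one another by a rule of the same sign and a mean over 2 SD, with no minimum ratio. H2-D1 and H2-K1 did not stand apart, nor did H2-K1 and Tap2 (log2 ratio 1.08 ± 0.57). Tap2 stood above Tap1. Tap1 and H2-T23 did not stand apart (0.30 ± 0.28), while H2-T23 met the rule against Psmb8 by a small step (0.18 ± 0.02). That step is under the 0.5 asked of a pair, and its SD leaves out the counting error of genes with 22 to 40 counts. In the kallisto-layout tables the lower order changed, with H2-T23 above Tap1 in the mean, and neither Tap2 and H2-T23 nor H2-T23 and Tap1 stood apart. Of 16 gene pairs examined, 11 were called different in the RSEM-layout tables and 13 in the kallisto-layout tables.

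None of the 9 genes was called different between the libraries. Each gene's counts were compared by an exact two-sided binomial test with Benjamini-Hochberg adjustment over 18332 genes, of which 22.7% were called, 12.5% higher and 10.2% lower in replicate 2. The count for the class I genes was 0 of 9, with 1, Tapbp, at an unadjusted p under 0.05 (p = 0.0176), and edgeR's exact test at an assumed coefficient of variation of 0.1 gave 0 at either level. Counts of this size are called less often in general. The share called was 7.4% of the genes with a mean count from 10 to 50, which include Psmb8, Psmb9 and H2-T23. It was 15.9% from 50 to 200, which include Tap1, Tap2 and H2-K1, and 17.8% from 200 to 600, which include Tapbp, B2m and H2-D1. The test compares these libraries and no conditions.

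Of the 9 log2 ratios of replicate 2 to replicate 1, 6 were above 0 and 3 below, with a median of 0.20 against 0.0027 over all genes tested. Tapbp had the smallest adjusted p, with 463 and 591 counts and a log2 ratio of 0.21 (95% counting interval 0.04 to 0.39, adjusted p = 0.0702 by the exact binomial test). With other library scalings that p was 0.0487, 0.0419 or 0.00165, so the call for Tapbp depended on the scaling. H2-D1 followed with a log2 ratio of 0.24 (−0.02 to 0.50, adjusted p = 0.183 by the exact test). Tap2 had 117 and 158 counts and a log2 ratio of 0.29 (−0.06 to 0.65, adjusted p = 0.255 by the exact test). The ratio was 0.20 for Tap1 (−0.24 to 0.65), 0.11 for B2m (−0.07 to 0.29), −0.10 for H2-K1 (−0.47 to 0.26, and 0.0035 with spike-in scaling) and −0.14 for H2-T23 (−0.81 to 0.53). Psmb8 was at −0.32 (−1.22 to 0.56) and Psmb9 at 0.64 (−0.68 to 2.13). For the last 2, the intervals reach past 2-fold in at least 1 direction, so smaller differences were not detectable at this depth.

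**Figure D3:**
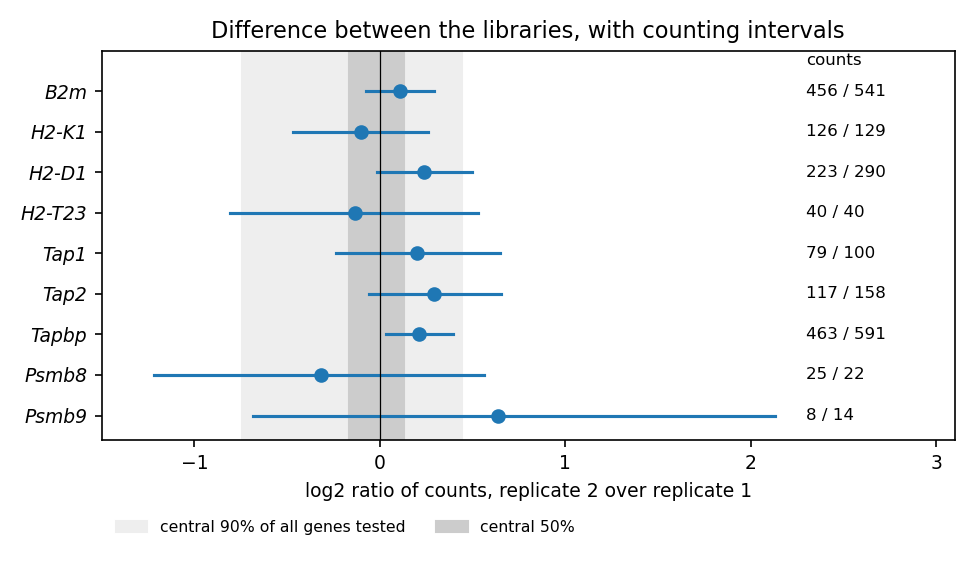
Log2 ratio of counts in replicate 2 over replicate 1 for each class I presentation gene (points) with 95% counting intervals (bars), the counts of both libraries at the right, and grey bands for the central 50% and 90% of the 18332 genes tested. The interval of Tapbp alone, from 0.04 to 0.39, leaves out 0, and that of Psmb9, with 8 and 14 counts, is the widest.

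Several class I genes drew much of their signal from transcripts that keep an intron, which total RNA libraries also sample. For Tap2, 66.9% of the counts in replicate 1 and 88.9% in replicate 2 were given to its 1 retained-intron transcript, Tap2-202. The coding transcript Tap2-201 held 37.3 and 10.95 counts. In the kallisto-layout tables the retained-intron share of Tap2 was 38.3% and 54.4%, lower in both libraries than in the RSEM-layout tables. For Psmb8 the share was 38.3% and 60.5%, on 25 and 22 counts, against 24.2% and 21.7% in the kallisto layout. For Psmb9 it was 0% and 38.4% against 34.1% and 39.6%, on fewer counts still. The share of H2-T23 was 30.04% and 40.9% against 39.9% and 29.8%. Tap1 had 25.5% and 24.9% against 30.2% and 45.1%, and H2-K1 had 22.98% and 22.75% against 11.8% and 16.5%. In contrast, retained-intron transcripts held at most 1.51% of the counts of Tapbp and of H2-D1 in each library, and at most 2.38% in the kallisto layout. B2m has no such transcript in the annotation.

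H2-K1 shows how the unit matters. Its transcript with the largest share of TPM was H2-K1-215, a retained-intron transcript of 457 bases with 38.6% and 41.2% of the gene's TPM. It held only 18.6 and 19.8 of the gene's counts, since a short transcript yields a high TPM from few reads. In the kallisto-layout tables H2-K1-215 held 0.867% of the TPM in the mean, and the coding transcript H2-K1-201 led with 31.4%. The coding transcript of H2-K1 with the most counts was H2-K1-201 in both layouts, with 52.0 and 83.5 counts in the RSEM-layout tables.

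For Tapbp the layouts also named different leading transcripts, both coding. Tapbp-206 led in the RSEM-layout tables with 41.0% ± 7.81, and Tapbp-201 led in the kallisto-layout tables with 74.8% ± 3.20. H2-D1-202 led in both with 85.5% ± 5.58 and 88.7% ± 11.4, as did H2-T23-201 with 73.6% ± 10.7 and 77.9% ± 3.59. Tap1-206 led with 67.4% ± 12.6 and 51.2% ± 14.9. In the RSEM layout, the libraries had the same leading transcript for 8 of the 9 genes. By mean share, the layouts had the same leader for 5. In the kallisto layout the leader of Tap2 was the coding Tap2-201 in replicate 1 (53.5%) and Tap2-202 in replicate 2 (40.8%). The kallisto-layout leaders of Psmb8 and Psmb9 also changed between libraries. Transcript shares of Psmb8 and Psmb9 rest on few counts.

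Read assignment was least certain for H2-T23 and H2-D1 among the 9 genes. The deposited posterior SD of a gene's count, which measures how uncertainly reads were assigned, was 3.28% and 3.66% of the mean count for H2-T23 and 0.944% and 0.756% for H2-D1. For H2-K1 it was 0% and 0.386%, for Tapbp 0.0691% and 0.0694%, and for B2m, Tap1, Tap2, Psmb8 and Psmb9 it was 0%. Of all genes tested, 10.99% exceeded 1% in at least 1 library. The layouts gave H2-T23 different totals, with 40.1 and 40.3 counts in the RSEM layout and 67.5 and 68.0 in the kallisto layout, 1.69-fold more. Over all genes tested, the ratio of kallisto-layout to RSEM-layout counts had a median of 1.07, with the central 90% between 0.700 and 1.55, so H2-T23 lay outside that range. B2m lay low in it at 0.744, with 347 and 395 kallisto-layout counts, although it shares no 31-base run with another gene. The ratio was between 1.02 and 1.15 for the other 7.

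Some of the remaining class I genes of the H2 region differed more between layouts. H2-Q4 had 20.2 and 25.1 counts in the RSEM layout and 83.3 and 82.2 in the kallisto layout. H2-Q7 had 5.08 and 11.9 against 61.6 and 45.8, and H2-Q10 had 1.00 and 1.35 against 18.6 and 16.3. For H2-Q4, H2-Q7 and H2-Q10 the layout moved the count by more than the replicates differed, and their levels are uncertain. H2-T22 differed little, at 142 and 132 against 146 and 139 counts, although 51.0% of its 31-base runs occur in another gene. H2-M3 had 28 and 31 against 28 and 29 counts, and H2-M5 had 38 and 43 against 46 and 51.

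**Figure D4:**
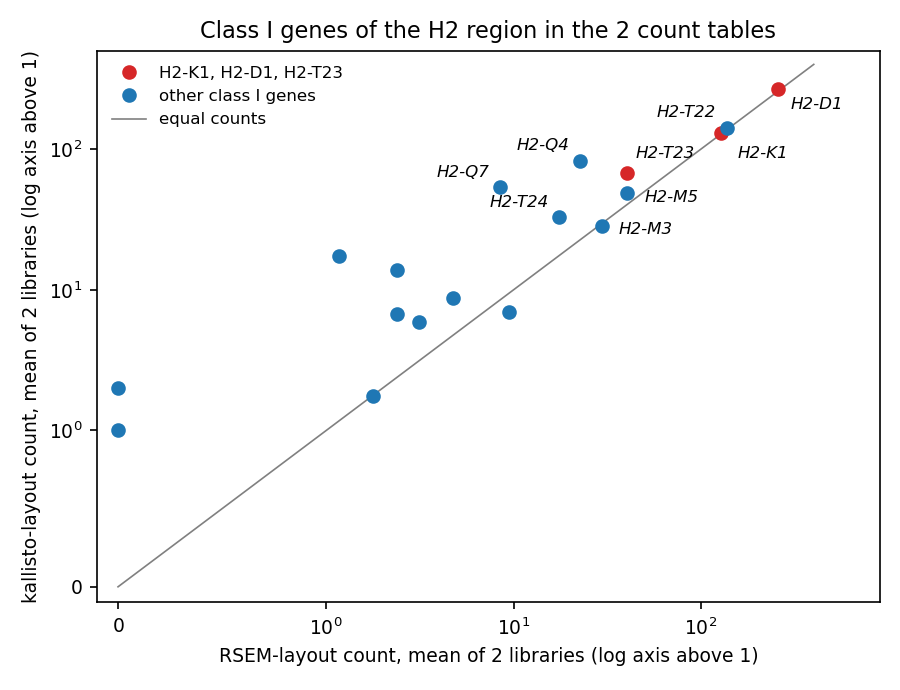
Mean count of the 2 libraries in the kallisto-layout tables against that in the RSEM-layout tables for class I genes of the H2 region, both axes logarithmic above 1, with H2-K1, H2-D1 and H2-T23 in red and equal counts on the grey line. H2-D1 and H2-K1 lie on the line, H2-T23 lies above it at 1.69-fold, and H2-Q4 and H2-Q7 lie farther above.

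Of 21 further class I genes of the region on the list, 18 were in the tables under those symbols, and 2 of them were detected at 1 TPM or more in both libraries of the RSEM layout. These were H2-T22, at 3.84 and 3.45 TPM, and H2-M3, which presents formylated peptides, at 1.04 and 1.08. H2-M5 was at 0.890 and 0.960 TPM. In the kallisto layout, further genes of this list reached 1 TPM in both libraries. They were H2-Q4 (3.54 and 3.30 TPM), H2-M5 (2.03 and 1.88), H2-T24 (1.38 and 1.42) and H2-Q7 (1.31 and 1.06). H2-T3, H2-M2, H2-M9, H2-M10.1 and H2-M11 had a count of 0 in both libraries of the RSEM layout. None of the 5 genes tested in this list was called. In the summed TPM of all class I heavy chain genes of the region, H2-D1 and H2-K1 together gave 12.7 of 21.7 TPM in replicate 1 and 14.2 of 23.6 in replicate 2. B2m, at 29.7 and 33.1 TPM, exceeded that sum in both libraries. In the kallisto layout the pair gave 18.5 of 39.5 and 21.1 of 41.6 TPM, and B2m, at 43.5 and 46.3, was again above the sum. These sums rest on 1 reference, and any loss of reads from CAST/EiJ heavy chain alleles was not tested.

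Among 7 class I-like genes, which fold like class I heavy chains, Fcgrt was the highest. It was the only one of 5 tested that was called, against 22.7% of all genes tested. It encodes the neonatal Fc receptor, which also pairs with B2m. Fcgrt had 229 and 343 counts, a log2 ratio of 0.44 and an adjusted p of 0.00256 by the exact binomial test, and its level was 7.16 and 10.3 TPM. Its level was close to that of the classical heavy chains. Hfe, an iron regulator, Mr1, which presents vitamin metabolites, and Cd1d1, which presents lipids, lay between 1.12 and 2.17 TPM in each library. Cd1d2 had a count of 0 in both.

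Genes for peptide loading and trimming had a median of 40.5 TPM, and 4 of 11 were higher and 1 lower in replicate 2. Most of these genes had at least 600 counts, a range in which 36.9% of all genes tested were called. The chaperone Calr was the highest at 190 and 240 TPM, 16.4-fold above Tapbp (log2 4.04 ± 0.01, and 24.8-fold in the kallisto layout), with a log2 ratio between libraries of 0.26. Canx (0.10), Pdia3 (0.17) and the intramembrane protease Sppl3 (0.15) were the others that were higher, and the aminopeptidase Lnpep was lower (−0.16). These ratios were small, and the counts behind them were large. All 5 calls were lost with edgeR's exact test and its assumed variation of 0.1 (adjusted p = 1), and that of Lnpep also with spike-in scaling (−0.05, adjusted p = 0.102 by the exact binomial test). Erap1, which trims peptides in the endoplasmic reticulum, was at 3.83 and 3.90 TPM and was not called. The loading chaperones, which also fold many other proteins, were thus far above the class I chains and the transporter.

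Around the proteasome, 1 of 3 standard catalytic subunits (Psmb6, log2 0.16) and 2 of 11 other core subunits (Psma4 and Psma5) were higher in replicate 2 and none was lower. All of these subunits had mean counts of at least 600, a range in which 36.9% of all genes tested were called. The call of Psmb6 was lost in the kallisto layout (0.12, adjusted p = 0.176 by the exact binomial test). In the list of Psmb10, the assembly factor Pomp and the activators, 1 of 6 was higher and 1 lower, against 22.7% called of all genes tested. Psme1, an activator subunit induced by interferon gamma, had a log2 ratio of 0.30, and Psme4, another activator, one of −0.14, which was lost with spike-in scaling (−0.04, adjusted p = 0.581 by the exact binomial test). With edgeR's exact test all 5 proteasome calls were lost (adjusted p = 1), as were the calls named here for class I-like genes, regulators, interferon receptors, microglia and endothelium (adjusted p from 0.450 to 1). Psme1 was at 26.9 and 29.7 TPM and its partner Psme2 at 20.3 and 21.97, both well above Psmb8 and Psmb9.

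The regulators of class I transcription had a median of 10.5 TPM. Nlrc5, the class I transactivator, was the lowest of the 16, with 9 and 4 counts (0.190 and 0.0900 TPM). Irf1, an interferon-induced activator, was at 2.06 and 2.37 TPM. Subunits of NF-Y, which binds the Y box, were higher, with Nfyb at 26.6 and 27.7 TPM. Of 15 tested, 1 was higher (Nfyc, log2 0.25) and 1 lower (Stat2, −0.42) in replicate 2. Over all genes tested, 22.7% were called, which is the background for the lists of this paragraph. The interferon receptors and their kinases were all detected, with 1 of 7 called (Ifngr2, higher). Of 22 interferon-stimulated genes, 7 were detected in both libraries, and the list's median was 0.398 TPM. None of the 14 tested was called. Ifi27 was the highest of these at 22.7 and 19.3 TPM, and Ifitm3 was at 2.91 and 4.58.

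Receptors that bind class I molecules were low. None of 10 reached 1 TPM in the RSEM layout, and Kir3dl1, Klrd1, Klrc1 and Cd8b1 had a count of 0 in both libraries. Klra2 was the highest at 0.320 and 0.220 TPM, and at 1.15 and 0.509 in the kallisto layout. Pirb, a class I receptor also described in neurons, was at 0.05 and 0.12 TPM.

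Cell types known to be rich in class I molecules were compared by their markers. All 6 microglial markers reported were detected, with summed levels of 125 and 143 TPM, and 3 were higher in replicate 2 (log2 ratios of 0.25 for Cx3cr1, 0.19 for P2ry12 and 0.12 for Csf1r). All 7 endothelial markers were detected, with sums of 120 and 125 TPM. Of these, Cldn5 (0.41), Cdh5 (0.35) and Pecam1 (0.32) were higher and Ly6c1 (−0.57) and Slco1a4 (−0.33) lower. The parts of these cells in the class I levels were not tested. Markers of blood leukocytes were near 0 in the RSEM layout. None of 8 T and natural killer cell markers reached 1 TPM, with Cd3g, Ncr1 and Prf1 at 0 in both libraries, and their sums were 0.180 and 0.390 TPM. The 4 B cell markers summed to 0.420 and 0.370 TPM, and the 5 neutrophil and monocyte markers to 0.680 and 1.07, with Ly6g at 0. Of 4 dendritic cell markers, Flt3 alone was detected, and Xcr1 was at 0. The kallisto layout gave more, and its TPM was higher in general, by a median ratio of 1.59 over all genes tested. The T and natural killer cell sums were 2.56 and 2.18 TPM (68.7 and 66.1 counts against 9 and 14), with Cd3d at 0.913 and 1.10 TPM, 10 and 9 counts for Cd3g and Ncr1 still at 0. The B cell sums were 1.10 and 1.06 TPM, those of neutrophils and monocytes 2.25 and 1.60, and Xcr1 had 9.95 and 8.39 counts.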

How the data were processed

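Total RNA of 2 libraries of 1 group was analysed. Per the file headers, the gene tables give expected counts (estimated reads per gene, not normalised), TPM and a posterior SD of the count, and the RSEM-layout transcript tables give each transcript's percent of its gene's TPM. The deposited TPM total includes the spike-ins. The kallisto-layout tables deposited by the authors give estimated counts and TPM per transcript, which were summed per gene. They subtract more from a transcript's length (346.1 bases against 99), which raises the TPM of short genes. Their TPM was also higher in general, with a median ratio to the RSEM-layout TPM of 1.59 over all genes tested. Build and annotation are mm10 and GENCODE M21, per the labels and the deposited notes, while the sources used here do not name the aligner, the quantifier or the strand setting of the counting.

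The 97 spike-ins and 26248 numbered entries that name no gene (2.67e-05% and 9.4e-06% of counts) were left out. Expected counts were rounded for an exact two-sided binomial test of each gene with a mean count of at least 10, with library sizes scaled by TMM (trimmed mean of M-values, edgeR 4.0.16). P-values were Benjamini-Hochberg adjusted over every gene tested, and 0.05 was the threshold. Log2 ratios had a prior count of 0.5, and 95% intervals came from Clopper-Pearson limits. Intervals and limits cover counting error only. The test was checked on simulated data. Alternatives used DESeq2 1.42.0 size factors, total counts, spike-ins, other filters, the kallisto layout and edgeR's exact test in R 4.3.3. Other values used scipy 1.17.1, pandas 2.3.3, numpy 2.4.6 and, for figures, matplotlib 3.10.9 under Python 3.11.15.

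The class I genes and all lists were chosen with earlier results of these data known. The text names the 9 genes, the genes of the pairs, and from each list up to 4 with the highest mean TPM, those at 0 in both libraries and those called with a log2 ratio of at least 0.5 in size. The other genes named, among them H2-Q1, H2-Q6, H2-Q7, H2-Q10, Sppl3, Lnpep, Erap1, Psma4, Psma5, Psme2, Psme4, Nlrc5, Irf1, Stat2, Cx3cr1, Cdh5 and Pecam1, were chosen after their values were seen. 2 planned cell type markers are not reported here.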

Additional observations from a re-analysis of the deposited data

How the results depend on the processing

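The count of genes called between libraries was 4167 and became 6516 with spike-in scaling, where 84.7% of calls were higher in replicate 2 against 54.9%, and 173 with the edgeR test that assumes a variation of 0.1 between replicates (30.6% higher in replicate 2). Spike-in scaling set the median of all genes at 0.11 on the log2 scale. The count of class I genes called was 0, and it became 1 with total counts, 1 with DESeq2 size factors and 2 with spike-ins. Tapbp was the gene called each time, joined under spike-ins by H2-D1 (adjusted p = 0.0230 by the exact test). The log2 ratio of H2-K1 turned from −0.10 to 0.0035 under spike-ins, and no other class I gene changed sign. Of the 16 pairs, 13 were called in the kallisto layout, and without 1 replicate the count, then of sign and size alone, was 13 either way. TPM rescaled over protein-coding genes multiplied all 9 levels by a common factor in each library. Depth limits Psmb8, Psmb9 and H2-T23 most. No paired analysis was possible because the series holds 1 group. The planned protein comparison was not run.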

Other observations

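Genes of the class II pathway, which presents peptides from outside the cell, were at lower levels than the classical class I genes, with 1 exception. Of 9 on the list, 2 were detected at 1 TPM or more in both libraries, and none of the 4 tested was called between libraries. H2-DMa, which encodes a chain of the class II peptide editor, was at 15.4 and 14.0 TPM from 317 and 307 counts. It was thus above H2-D1 and H2-K1 in both libraries. Cd74, the invariant chain, was at 1.35 and 1.85 TPM, and the class II chains H2-Ab1 and H2-Eb1 were at 0.960 and 0.540 TPM and at 0.900 and 0.590 TPM.

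Genes near Tapbp and H2-K1 on chromosome 17 that have no part in presentation had a median of 14.8 TPM over 9 genes, all of them detected. Brd2, a chromatin reader, was at 116 and 120 TPM, and the ribosomal gene Rps18 was at 149 and 179 TPM and was the only one called between libraries, higher in replicate 2 (not called by edgeR's exact test, adjusted p = 1). Of all genes tested, 22.7% were called. Zbtb22, which overlaps Tapbp, was at 14.3 and 13.8 TPM, near the 11.5 and 14.7 TPM of Tapbp.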
